A study of Mus musculus with 10 samples.

Results

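Ppara and 7 genes of fatty acid use in mitochondria were followed in the inguinal white adipose tissue (iWAT) of male C57BL/6 mice, a fat depot under the skin. The 8 genes are Ppara, Ppargc1b, Cpt1a, Cpt1b, Cpt2, Slc25a20, Pdk4 and Ucp3, taken by symbol from the 51826 genes listed for each library, of which 33120 have an exon length and can hold exon reads. RNA of the whole tissue was sequenced in 10 libraries of 4 groups, with 1 mouse per library. F0 males, 10 to 12 weeks old, ate a control diet (CD, 2 libraries) or a low-protein diet (LPD, 2 libraries) after weaning. F1 males, 5 weeks old, were sons of CD fathers (3 libraries) or of LPD fathers (pLPD offspring, 3 libraries), and each F1 group came from 3 different mothers. Mothers and offspring were fed the CD, so the LPD reached the F1 mice only through the father. A difference between F0 and F1 cannot be told apart from one of age or of library set, which change with generation. In a whole fat pad, fewer cells of a type and less RNA per cell cannot be told apart either.

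Long-chain fatty acids enter mitochondria as carnitine esters. CPT1, at the outer mitochondrial membrane, moves the acyl group from coenzyme A to carnitine, the translocase SLC25A20 carries acylcarnitine across the inner membrane in exchange for free carnitine, and CPT2 hands the acyl group back to coenzyme A inside, where β-oxidation starts. PPARα is a nuclear receptor activated by fatty acids that binds DNA as a dimer with RXR and controls many genes of this route in liver, heart and brown fat. White adipocytes store fatty acids rather than burn them, and their dominant receptor of the family is PPARγ.

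The 5 members whose exon reads rose in the F0 mice fed the LPD (values follow) included Pdk4, Slc25a20 and Cpt1a, and the sequences before their starts are shown as examples. Ppara, also among the 5, had a window that is not printed. RefSeq promoter windows were found for 6 of the 8 members (GRCm38.p6), and windows for Cpt1b and Ppargc1b were not used here. Each line gives 200 bases, from 250 to 51 bases before the start, 5′ to 3′ on the gene's strand; capitals mark a match to AGGTCA, the core site of nuclear receptors, on either strand.
Pdk4 (chr6:5496329-5496528, minus strand): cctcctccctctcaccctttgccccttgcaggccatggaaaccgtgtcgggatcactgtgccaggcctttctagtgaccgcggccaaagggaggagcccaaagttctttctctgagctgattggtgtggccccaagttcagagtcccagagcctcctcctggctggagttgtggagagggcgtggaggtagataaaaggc
Slc25a20 (chr9:108661886-108662085, plus strand): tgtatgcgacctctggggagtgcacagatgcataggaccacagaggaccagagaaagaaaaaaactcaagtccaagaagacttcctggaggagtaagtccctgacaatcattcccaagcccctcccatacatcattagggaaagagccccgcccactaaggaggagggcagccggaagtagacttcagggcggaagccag
Cpt1a (chr19:3323051-3323250, plus strand): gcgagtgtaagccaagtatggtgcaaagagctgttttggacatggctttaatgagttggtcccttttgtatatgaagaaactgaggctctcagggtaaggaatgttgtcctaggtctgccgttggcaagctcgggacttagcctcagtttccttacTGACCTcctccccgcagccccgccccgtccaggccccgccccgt
The capitals in Cpt1a read TGACCT, which is AGGTCA on the minus strand, at bases -94 to -89 from the start. Ucp3, whose exon reads did not pass the test, held AGGTCA at -149 to -144 and at -44 to -39. No match stood in the 250 bases before the starts of Pdk4, Slc25a20, Ppara and Cpt2. In all 27025 promoters of the same length, 13.84% held AGGTCA on either strand. The letters AGGTCANAGGTCA, a direct repeat of this core with 1 base between (the PPAR response element), occurred in none of the 6 windows and in 0.037% of all promoters. The freer AGGNCANAGGNCA, which includes the former, was likewise in none of the 6 and in 0.333% of all promoters. GC content of the 6 windows lay between 54.8% for Ucp3 and 76.4% for Ppara, against a median of 52% over all promoters. These matches describe letters in 1 window per gene and say nothing of binding elsewhere.

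The libraries held 6351075 to 10044546 reads on exons, so 3 reads corresponded to 0.299 to 0.472 counts per 1000000 (CPM), for counting error only. All 8 members lay above that level in every library, with the fewest exon reads in Ppara (126 in an F0 mouse fed the CD). In 7 libraries, introns held 36.0% to 37.9% of the reads of protein-coding genes, while the 3 pLPD offspring held 48.4%, 41.8% and 40.7%. The pLPD library with 48.4%, replicate 1, is the one that stands apart in several results. For some of these, but not all, the value without it is given as well. White adipocyte markers were abundant everywhere: the 10 markers summed to 18185 to 25411 CPM per library.

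Levels of the members were compared per exon length, in the deposited RPKM (reads per 1000 bases of exon and 1000000 reads of the library). In F0 mice fed the CD, Cpt2 was highest at 37.0 ± 1.56 RPKM (SD, n = 2), then came Pdk4 at 15.0 ± 4.14 and Slc25a20 at 10.6 ± 1.78. Ucp3 (7.54 ± 0.785), Cpt1a (7.35 ± 0.569) and Cpt1b (6.59 ± 3.26) followed, and in this stretch of the order neighbours overlapped. Ppargc1b (3.53 ± 0.487) and Ppara (2.43 ± 0.732) were the lowest. Cpt1a is the CPT1 of liver and most tissues, and Cpt1b that of muscle and brown fat. The RPKM of Cpt1b rests on total exon reads, most of which were not counted as unique to it. With the deposited expression value column, which counts fewer of these reads, in place of total exon reads, Cpt1b stood at 2.93 ± 1.43 RPKM in this group, below Cpt1a and between Ppargc1b and Ppara.

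In F0 mice fed the LPD, the order opened with Pdk4 (57.7 ± 5.61 RPKM), ahead of Cpt2 (47.8 ± 2.36), and no neighbours overlapped. Ppara (5.08 ± 0.812) stood above Ppargc1b (3.30 ± 0.354). The order of the CPT1 genes depended on the shared reads: Cpt1b stood above Cpt1a (11.6 ± 2.51) on total exon reads (19.0 ± 2.47) and below it on the expression value column (8.59 ± 1.05), where its range overlapped that of Ucp3. In the sons of CD fathers, Cpt2 (42.7 ± 3.52 RPKM, n = 3) led, and Cpt1b (26.9 ± 5.53), Pdk4 (25.8 ± 5.36) and Slc25a20 (25.7 ± 2.63) overlapped one with the next, as did Ppargc1b and Ppara at the low end. On the expression value column Cpt1b was at 12.3 ± 2.60 in these mice and 10.4 ± 4.55 in pLPD offspring, next to Ucp3 and still above Cpt1a in both groups. In pLPD offspring Pdk4 spanned 19.8 to 72.8 RPKM and overlapped Cpt2 (37.1 ± 1.22), and the ranges of Cpt1b and Slc25a20 overlapped, as did those of Cpt1a, Ppara and Ppargc1b as neighbours. Cpt1a was the only member with a lower mean RPKM in both F1 groups (6.00 and 5.70) than in both F0 groups. In CPM normalized over all 10 libraries its values overlapped. They were 57.3 and 62.6 in F0 mice fed the CD and 59.7, 53.3 and 56.7 in pLPD offspring. This is a side-by-side description without a test, since generation cannot be told apart from age and library set.

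**Figure D1:**
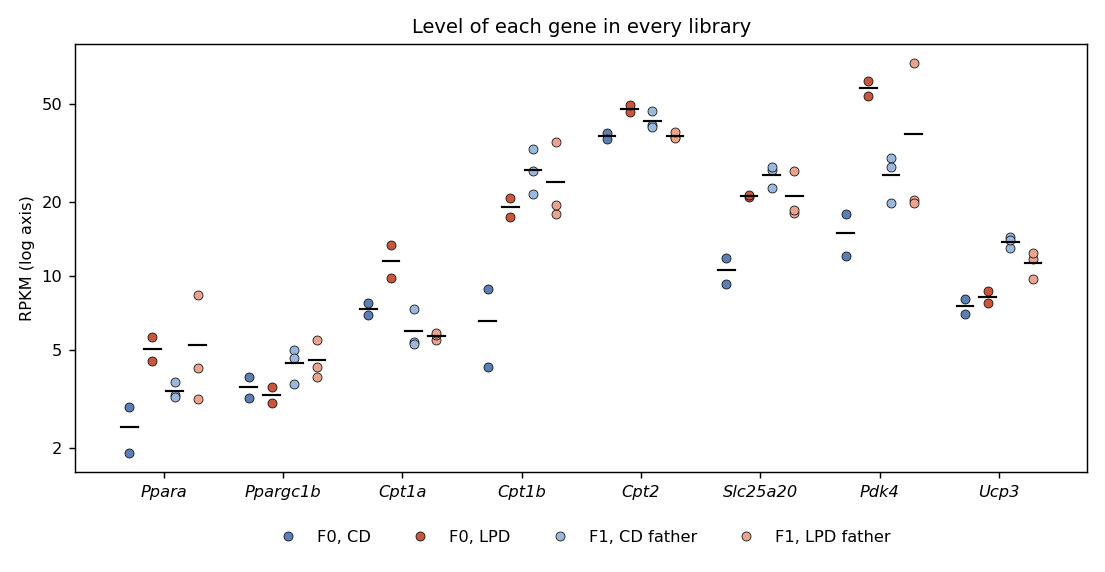
Deposited RPKM of the 8 genes on a log axis: 1 point per library (2 per F0 group, 3 per F1 group), a bar at the group mean. Pdk4 shows the widest gap between the F0 diets (15.0 against 57.7 RPKM on average), and 1 pLPD library at 72.8 RPKM stands far above the other two. Values of Cpt1b include reads not counted as unique to it.

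The first comparison asked what the LPD does in the animals that eat it. In F0 iWAT, 5 of the 8 members rose under the LPD and none fell (edgeR's quasi-likelihood test, Benjamini-Hochberg adjusted p under 0.05 over 14581 genes). Among all genes tested, 1.18% rose and 1.32% fell. The median log2 fold change of the 8 members was 0.88, against 0.00035 over all genes tested. In 7 of the 8 members both LPD libraries lay above both CD libraries, which held for 23.0% of all genes. The members were chosen with results of these data known, so these counts describe them. An exact permutation test of 2 against 2 mice cannot give less than 0.333.

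Ppara (ENSMUSG00000022383, chr15:85734983-85802819 of mm10) is the receptor itself. Its normalized exon reads were 14.1 and 21.2 CPM in the mice fed the CD and 43.4 and 33.5 CPM in those fed the LPD. Both LPD values lay above both CD values, and the rise was 2.17-fold, a log2 fold change of 1.12 with a 95% interval of 0.68 to 1.56 (SE 0.19, edgeR adjusted p = 0.0249). Without the first CD library it was 0.86 (adjusted p = 0.0528) and without the first LPD library 0.92 (adjusted p = 0.0704), so this call rests on both. It was also lost with all 4 groups in one fit (edgeR adjusted p = 0.253) and with limma-trend on RPKM (adjusted p = 0.0835). Ppargc1b encodes PGC-1β, a coactivator of nuclear receptors in mitochondrial biogenesis. It had 24.3 and 29.0 CPM under the CD and 28.4 and 23.6 CPM under the LPD, groups that overlap. Its log2 fold change was -0.04, with an interval from -0.35 to 0.28 (edgeR adjusted p = 0.945).

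Of the shuttle, Slc25a20 (ENSMUSG00000032602, chr9:108662088-108684641 of mm10), the translocase, had the call that held most often. It had 52.6 and 40.7 CPM under the CD and 97.7 and 96.7 CPM under the LPD. The LPD libraries were close to each other and well above the CD libraries, a 2.09-fold rise (log2 1.06, interval 0.79 to 1.33, SE 0.12, edgeR adjusted p = 0.00627). It passed the threshold under all 10 other settings and with each library left out in turn.

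Cpt1b (ENSMUSG00000078937, chr15:89416405-89425863 of mm10), the muscle-type CPT1, had 57.3 and 27.1 CPM under the CD against 140.2 and 113 CPM under the LPD. The CD libraries differed from each other by more than the LPD libraries, yet the groups did not overlap, and the rise was 3.02-fold (log2 1.60, interval 0.99 to 2.20, SE 0.27, edgeR adjusted p = 0.0228). Without the first LPD library the log2 fold change was 1.43 and no longer passed. The call was also lost with DESeq2 (adjusted p = 0.104), with limma-trend on RPKM (adjusted p = 0.0728) and with all 4 groups in one fit (edgeR adjusted p = 0.0661). Cpt1a, the liver-type CPT1 (ENSMUSG00000024900, chr19:3323301-3385732 of mm10), rose less: 57.1 and 62.6 CPM under the CD became 84.1 and 111 CPM under the LPD. That is 1.63-fold (log2 0.70, interval 0.41 to 1.005, SE 0.13, edgeR adjusted p = 0.0334). Cpt1a did not pass with all reads on the gene (edgeR adjusted p = 0.0550) or with limma-trend on RPKM (adjusted p = 0.120). With 1 library left out, Cpt1a kept its direction but passed only without the first LPD library, and missed without the first CD (adjusted p = 0.110), the second CD (0.0585) and the second LPD library (0.115).

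Cpt2, the inner-membrane partner and the member with the highest RPKM under the CD, had 174 and 161 CPM under the CD and 220.4 and 229 CPM under the LPD. The groups did not overlap, and the log2 fold change of 0.43 (interval 0.21 to 0.64, SE 0.09) narrowly missed the threshold (edgeR adjusted p = 0.0526; DESeq2 0.0407). The members of the shuttle did not respond to the same size: the intervals of Slc25a20 (0.79 to 1.33) and Cpt2 (0.21 to 0.64) do not meet, though the difference between genes was not tested.

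Pdk4 (ENSMUSG00000019577, chr6:5483351-5496309 of mm10) encodes a kinase that switches off pyruvate dehydrogenase and so spares glucose when fatty acids are burnt. It had 120.2 and 79.5 CPM under the CD and 378 and 421 CPM under the LPD. Both LPD libraries lay at more than 3 times the higher CD value, and the fold was 4.001 (log2 2.00, interval 1.60 to 2.40, SE 0.18, edgeR adjusted p = 0.00223), the largest among the members. It passed with each library left out, and lost the call only where all 4 groups shared 1 estimate of the spread (adjusted p = 0.106).

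Ucp3 encodes a mitochondrial carrier of the uncoupling protein family, found mainly in muscle and brown fat. It had 48.51 and 41.1 CPM under the CD and 48.53 and 52.8 CPM under the LPD, so the groups nearly touched. Its log2 fold change of 0.18 (interval -0.06 to 0.42, edgeR adjusted p = 0.487) leaves room for no change and for a rise of up to 0.42.

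**Figure D2:**
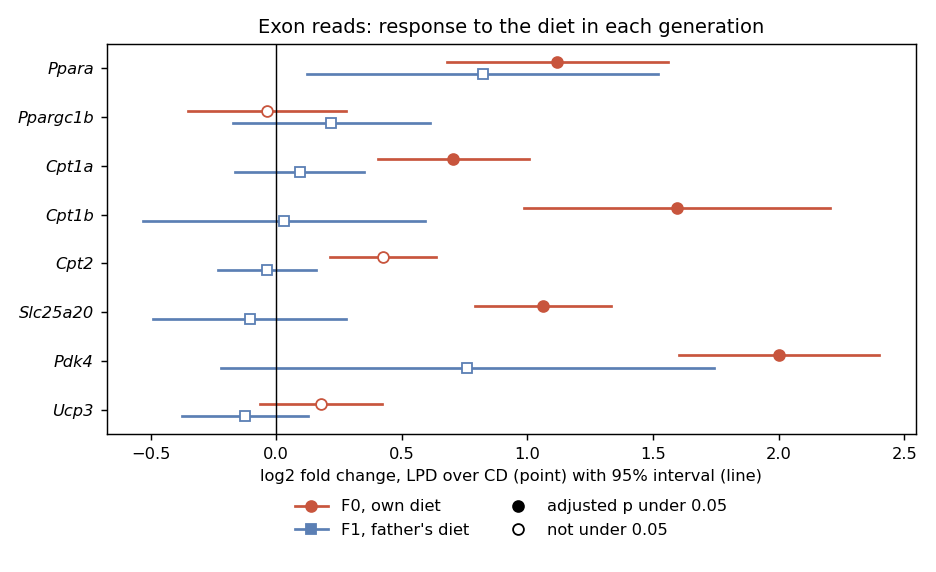
Log2 fold change of exon reads, LPD over CD, with 95% intervals, for the mice that ate the diets (F0, circles) and for sons of fathers on each diet (F1, squares); filled symbols have an edgeR adjusted p under 0.05. The 5 filled symbols are all F0, from 0.70 (Cpt1a) to 2.00 (Pdk4), and the F1 interval of Pdk4 runs from -0.22 to 1.74.

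Cpt1b needs a second look because its reads are shared. The deposited annotation lists Chkb, a choline kinase gene on the same strand, over the whole span of Cpt1b, and only 10.7% to 14.9% of the exon reads of Cpt1b were counted as unique. Of the 36-base words in its GENCODE vM21 transcripts, 79.4% also occur in Gm44502, a transcript that reads through both genes, against 8.3% or less with any other gene for each other member. On unique reads alone, 69 and 29 under the CD and 168 and 120 under the LPD, the F0 log2 fold change was 1.61 (interval 0.86 to 2.35, edgeR adjusted p = 0.0393). Unique reads were tested over 13421 genes, of which 1.38% rose. Leaving out 1 LPD library left the log2 fold change between 1.42 and 1.76 and lost the call. Chkb on total exon reads had a log2 fold change of 0.38 (interval 0.08 to 0.69, edgeR adjusted p = 0.205). In F1, unique reads of Cpt1b gave 0.03 (interval -0.61 to 0.68, edgeR adjusted p = 0.974).

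Reads on introns stem largely from RNA that is not yet spliced, and the library kit kept it because rRNA was depleted and no poly(A) selection was made. In F0, 4 of the 8 members rose on intron reads and none fell (edgeR, 14334 genes tested, of which 1.36% rose and 2.12% fell). Pdk4 had 134 and 176 intron reads under the CD and 515 and 540 under the LPD, a log2 fold change of 1.87 (interval 1.56 to 2.17, edgeR adjusted p = 0.000124). Ppara had 237 and 217 intron reads under the CD against 650 and 435 (log2 1.33, interval 1.02 to 1.65, edgeR adjusted p = 0.00105). For both genes the intron and exon estimates lay within each other's intervals.

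Slc25a20 behaved otherwise. Its intron reads, as raw counts not scaled for depth, were 120 and 136 under the CD and 151 and 118 under the LPD. After normalization their log2 fold change was 0.16 (interval -0.15 to 0.47, edgeR adjusted p = 0.675), while the exon reads of Slc25a20 doubled (2.09-fold). The share of introns in its reads was 22.6% ± 3.34 under the CD and 13.2% ± 1.08 under the LPD (SD, n = 2 each). Cpt2 showed the same picture at a smaller size, with intron reads of 186 and 166 against 146 and 143 (log2 -0.19, edgeR adjusted p = 0.609) and an intron share of 9.99% ± 0.935 against 6.64% ± 0.187. Ppargc1b went the other way: its introns held 81.6% ± 1.09 of its reads under the CD and 86.1% ± 0.0898 under the LPD, and its intron reads rose (1018 and 1226 against 1683 and 1252, log2 0.47, interval 0.25 to 0.69, edgeR adjusted p = 0.0296) where its exon reads did not. Without the first LPD library the intron value of Ppargc1b was 0.36 (adjusted p = 0.177). A direct test of exon against intron change was not run. Cpt1b rose on introns too (log2 1.70, edgeR adjusted p = 0.0444), but on 18 and 10 reads against 56 and 31, and lost the call without the second CD library (1.30, adjusted p = 0.0859) or the first LPD library (1.34, adjusted p = 0.266). Cpt1a (0.29, adjusted p = 0.143) and Ucp3 (0.12, adjusted p = 0.773) did not pass in the same edgeR fit.

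**Figure D3:**
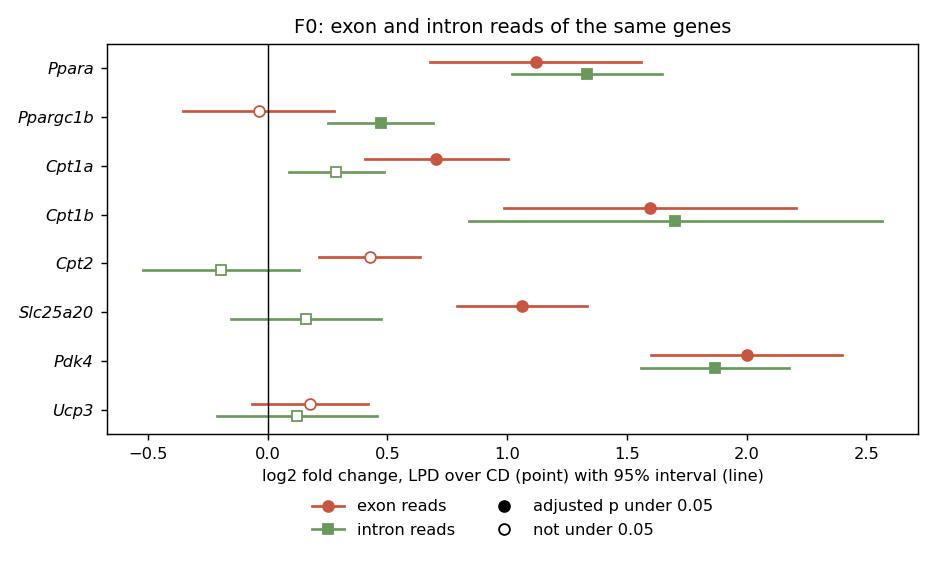
F0 log2 fold change, LPD over CD, with 95% intervals, on exon reads (circles) and on intron reads (squares) of the same genes; filled symbols have an edgeR adjusted p under 0.05. The 2 estimates lie together for Ppara and Pdk4 and apart for Slc25a20 (1.06 on exons, 0.16 on introns).

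The second comparison asked whether the father's diet moved the same genes in sons that never ate it. None of the 8 members passed the test in F1 on exon reads (edgeR, 14049 genes tested, of which 0.142% rose and 1.02% fell). The calls over all genes, 164 in this fit, ranged from 18 to 510 with 1 library left out, and those of the members stayed at 0. At an unadjusted p under 0.05 there was 1 member, Ppara, against 15.3% of all genes, and DESeq2 called none, 0 of 8 also at an unadjusted p under 0.05. The median log2 fold change of the members was 0.06, against 0.0074 over all genes tested. The ranges of the 2 paternal diets overlapped for all 8 members, whereas 20.1% of all genes did not overlap in one direction or the other. With 3 mice against 3, an exact permutation test cannot give less than 0.1.

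Ppara had 30.6, 26.2 and 24.8 CPM in the sons of CD fathers and 81.7, 26.6 and 36.4 CPM in pLPD offspring. The first pLPD library was far above all others, the second lay within the range of the sons of CD fathers, and the log2 fold change was 0.82 (interval 0.12 to 1.52, SE 0.32, edgeR adjusted p = 0.248; exact permutation p = 0.2). Without that first library it was 0.21 (edgeR adjusted p = 0.633). Pdk4 had 227, 201 and 139 CPM against 647, 157 and 156 CPM. Again only the first pLPD library was high, and the other two lay inside the CD range. The log2 fold change of 0.76 (interval -0.22 to 1.74, edgeR adjusted p = 0.459) turned to -0.27 without that library (edgeR adjusted p = 0.540).

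In the shuttle, Cpt1b had 193, 151 and 220.4 CPM in the sons of CD fathers and 298, 132 and 147 CPM in pLPD offspring. The same library was the highest of all 6, the other two the lowest, and the log2 fold change was 0.03 (interval -0.53 to 0.59, edgeR adjusted p = 0.971), or -0.43 without it (edgeR adjusted p = 0.237). Slc25a20 followed that pattern, with 134, 109 and 129 CPM against 158, 91.8 and 97.0 CPM, and a log2 fold change of -0.11 (interval -0.49 to 0.28, edgeR adjusted p = 0.830) that was -0.39 without the library (edgeR adjusted p = 0.149). Cpt1a had 49.99, 47.0 and 63.1 CPM against 59.9, 54.2 and 56.7 CPM (log2 0.09, interval -0.16 to 0.35, edgeR adjusted p = 0.761). The narrowest interval was that of Cpt2, at 212, 199 and 224 CPM against 221, 191 and 207 CPM: its log2 fold change was -0.04, between -0.23 and 0.16 (edgeR adjusted p = 0.887). For all 4 genes of the shuttle the upper bound of the F1 interval lies below the F0 estimate.

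The remaining members gave similar pictures. Ppargc1b had 42.8, 30.1 and 37.3 CPM in the sons of CD fathers and 55.7, 37.5 and 35.0 CPM in pLPD offspring (log2 0.22, interval -0.17 to 0.61, edgeR adjusted p = 0.607). Ucp3 had 97.1, 84.0 and 87.8 CPM against 92.9, 85.2 and 68.7 CPM (log2 -0.12, interval -0.37 to 0.13, edgeR adjusted p = 0.656). On intron reads none of the 8 passed in F1 (edgeR, 13456 genes tested, of which 0.163% rose and 0.26% fell), with 2 at an unadjusted p under 0.05 (13.8% of all genes). These were Ppara (log2 0.72, edgeR adjusted p = 0.290) and Pdk4 (log2 1.24, interval 0.69 to 1.80, edgeR adjusted p = 0.0588). With 1 library left out, the intron value of Ppara ran from 0.25 to 0.99. Pdk4 introns differed from its exons in that all 3 pLPD libraries, with 427, 324 and 320 intron reads, exceeded the sons of CD fathers at 127, 116 and 245. Without the first pLPD library its intron value was 1.15 (edgeR adjusted p = 0.126), and without the third library of the CD fathers 1.71 (edgeR adjusted p = 0.000448). The intron share of all protein-coding reads was higher in the same 3 libraries, at 40.7% to 48.4%, and its part in this result was not tested.

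The third comparison tested whether the diet changes differed between generations, as the interaction in a fit of all 10 libraries (F1 change minus F0 change on the log2 scale). No member passed (edgeR, 15111 genes tested, of which 0.357% were higher and 0.893% lower in F1). At an unadjusted p under 0.05, which 7.58% of all genes passed as lower, 4 members were lower: Slc25a20 (-1.17, interval -1.78 to -0.57, edgeR adjusted p = 0.0606), Cpt1b (-1.57, interval -2.59 to -0.55, edgeR adjusted p = 0.145), Cpt2 (-0.47, interval -0.76 to -0.18, edgeR adjusted p = 0.117) and Cpt1a (-0.62, interval -1.04 to -0.20, edgeR adjusted p = 0.166). DESeq2 called 2 members lower, Slc25a20 (adjusted p = 0.00369) and Cpt2 (adjusted p = 0.0475), where 1.8% of the 13255 genes with an adjusted p were called lower. For Ppara the difference was -0.30 (interval -1.40 to 0.79, edgeR adjusted p = 0.872) and for Pdk4 -1.25 (interval -2.72 to 0.23, edgeR adjusted p = 0.487). Ucp3 (-0.31, edgeR adjusted p = 0.504) and Ppargc1b (0.25, edgeR adjusted p = 0.794) completed the set. Without the first pLPD library, 3 members passed as lower in F1 in the edgeR fit: Pdk4 (-2.28, adjusted p = 0.00421), Slc25a20 (-1.46, adjusted p = 0.00366) and Cpt1b (-2.03, adjusted p = 0.0168). In that fit 1.22% of 15118 genes were lower. Ppara then stood at -0.92 (edgeR adjusted p = 0.1501). No member passed in the edgeR fit with any other single F1 library left out. Over all fits with 1 library left out, Pdk4 ran from -2.28 to -0.91, Slc25a20 from -1.46 to -0.997 and Cpt1b from -2.19 to -1.12.

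Markers of other cells moved along with several members and are given as measured values. The 11 markers of brown or beige adipocytes, thermogenic fat cells that burn fatty acids, summed to 252.6 to 415 CPM in F0 mice fed the CD and to 843 to 977 CPM in those fed the LPD. Of these 11, 7 rose and none fell in F0, among them Ucp1 (log2 2.89, edgeR adjusted p = 0.0196) and Cidea (log2 1.62, edgeR adjusted p = 0.0233), and none of the 11 was at 0 in every library of a group. The count was 4 without the second LPD library, 3 with all 4 groups in one fit, 2 by DESeq2 and 0 by limma-trend on RPKM, which had 8 higher at an unadjusted p under 0.05 (edgeR had 9). Of all 14581 genes tested in F0, limma-trend had 714 and edgeR 1098 higher at that unadjusted p. In the sons of CD fathers the sum of the 11 markers was 1479 to 2063 CPM. The first pLPD library had the highest sum of all 10, 2624 CPM, against 974 and 1074 CPM in the other two. Among the F1 libraries it was also the one with the most Cpt1b, Slc25a20, Pdk4 and Ppara. The part of these cells in the members' values was not tested.

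Skeletal muscle fibre markers fell in F0. The 18 markers summed to 4147 and 6461 CPM under the CD and to 2698 and 1992 CPM under the LPD, and 11 of 18 fell while none rose. The count of muscle markers that fell was 7 without the second CD library and 4 without the second LPD library, and lay between 5 and 17 in the other settings that kept every library. Muscle uses Cpt1b, Ucp3 and Pdk4 itself. In F1 the muscle sum was lower throughout, at 388 to 619 CPM in the sons of CD fathers and 248 to 582 CPM in pLPD offspring. By replicate number, the sons of CD fathers had muscle sums of 388, 471 and 619 CPM beside Cpt1b at 193, 151 and 220.4 CPM. The pLPD offspring had muscle sums of 582, 248 and 503 CPM beside Cpt1b at 298, 132 and 147 CPM. Within each paternal diet the same library was highest in both (619 beside 220.4 CPM, and 582 beside 298 CPM). Over both groups, the highest muscle sum and the highest Cpt1b lay in different libraries. The part of muscle in the members' values was not tested. Macrophage markers summed to 1143 to 1419 CPM in the sons of CD fathers and to 788 to 924 CPM in pLPD offspring, and 6 of 9 fell. Epithelial markers fell there as well, from 15.7 to 21.4 CPM down to 2.45 to 5.29 CPM, with 3 of 5 tested past the threshold. Among all genes tested in F1, 1.02% fell, and both counts are those of the reported fit. The 3 epithelial genes were near the level of 3 reads in pLPD offspring, with medians of 0 (Krt8 and Krt18) and 0.41 CPM (Krt19). Over the 10 libraries, lymphocyte sums lay between 412 and 650.1 CPM and endothelial sums between 540.0 and 858 CPM, and no marker of either list passed in F1 (5 and 4 at an unadjusted p under 0.05 by edgeR).

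**Figure D4:**
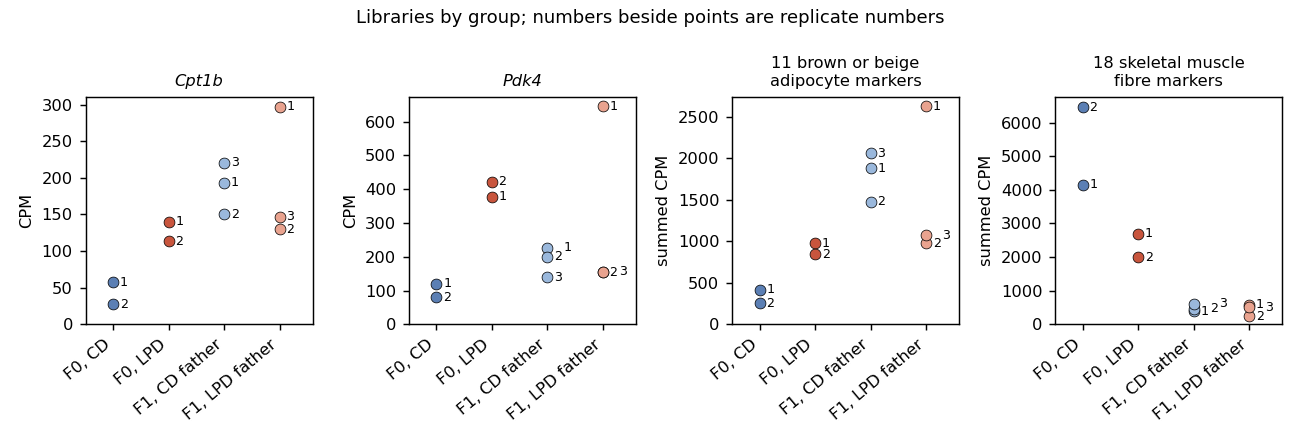
Cpt1b and Pdk4 in CPM and the summed CPM of 11 brown or beige adipocyte and 18 skeletal muscle fibre markers, 1 point per library with its replicate number, all axes from 0. Replicate 1 of the pLPD offspring is the highest of its group in every panel (2624 summed CPM for brown or beige markers, 582 for muscle markers). Muscle markers are highest in F0 mice fed the CD.

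The other genes of the route were read from lists chosen with earlier results of these data known, so the counts describe them. Of 27 listed known PPARα targets outside the members, 23 could be tested in F0, and 13 rose under the LPD while none fell. Their median log2 fold change was 0.69 against 0.00035 over all genes. Among all genes tested, 1.18% rose and 1.32% fell. Plin5, which coats lipid droplets next to mitochondria, went from 8.70 and 4.79 CPM to 32.7 and 50.1 CPM (log2 2.63, interval 2.00 to 3.25, edgeR adjusted p = 0.00501). Vnn1, a pantetheinase, rose by 2.39 on the log2 scale (edgeR adjusted p = 0.0110). Fabp3, the heart-type fatty acid binding protein, rose by 1.62 (edgeR adjusted p = 0.00223). Those that rose also included Acaa2, Acadl, Acadm, Angptl4, Ech1, Ehhadh, G0s2, Hadha and Hadhb, most of them enzymes of β-oxidation. The count was 3 with limma-trend on RPKM, 8 with all 4 groups in one fit and 7 to 13 with 1 library left out (7 without the second CD library, 8 without the first).

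In the remaining 5 lists 1 gene rose and 1 fell in F0. At an unadjusted p under 0.05 by edgeR, 1098 of all 14581 genes tested in F0 were higher and 1196 lower. Of 16 PPAR family members, partners and coregulators none passed (median log2 -0.03, 4 at an unadjusted p under 0.05, and 1 called lower by DESeq2), with Pparg at 0.13 and Ppard at -0.01. Among 9 tested genes of carnitine synthesis, uptake and transfer (median -0.16), Slc16a9, a carnitine exporter, fell by 0.87 (edgeR adjusted p = 0.0285), and Slc22a5, the main carnitine importer, was at 0.50 without passing (edgeR adjusted p = 0.0786). None of 10 genes of malonyl-CoA and AMPK, which control CPT1, passed (median 0.07, 4 at an unadjusted p under 0.05, 0 by DESeq2). None of 11 genes of pyruvate dehydrogenase, its kinases and phosphatases outside the members passed (median 0.07, 1 at an unadjusted p under 0.05, 0 by DESeq2), so Pdk4 was the single kinase of this enzyme past the threshold, with Pdk2 at 0.16. Of 6 other uncoupling proteins and carriers (median -0.21, from -0.46 to 2.89), Ucp1 rose (58.3 and 13.5 CPM against 238 and 289 CPM), and DESeq2 called none of the 6.

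In F1, 0 of the 23 PPARα targets passed (edgeR, 3 at an unadjusted p under 0.05, against 15.3% of all genes), DESeq2 called 1 lower, and the median was -0.01. Ppargc1a, the other PGC-1 coactivator, rose in pLPD offspring: 18.9, 16.2 and 16.5 CPM in the sons of CD fathers against 46.8, 27.4 and 32.8 CPM, groups that do not overlap (log2 1.05, interval 0.65 to 1.45, edgeR adjusted p = 0.0260). It was lost without the first pLPD library (0.81, edgeR adjusted p = 0.0541), the first library of the CD fathers (1.12, 0.0945) or the second (1.01, 0.125). Acacb, the acetyl-CoA carboxylase that makes the malonyl-CoA inhibiting CPT1, fell from 1961, 1791 and 1945 CPM to 1088, 1096 and 1361 CPM (log2 -0.68, interval -0.94 to -0.43, edgeR adjusted p = 0.0216), a call lost without the first pLPD library (-0.63, edgeR adjusted p = 0.0653), the second (-0.63, 0.125), or the first (-0.66, 0.116) or second (-0.73, 0.0915) library of the CD fathers. No gene of the lists on carnitine supply, pyruvate dehydrogenase or other uncouplers passed in F1, with 0, 2 and 2 genes at an unadjusted p under 0.05 and none called by DESeq2.

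**Figure D5:**
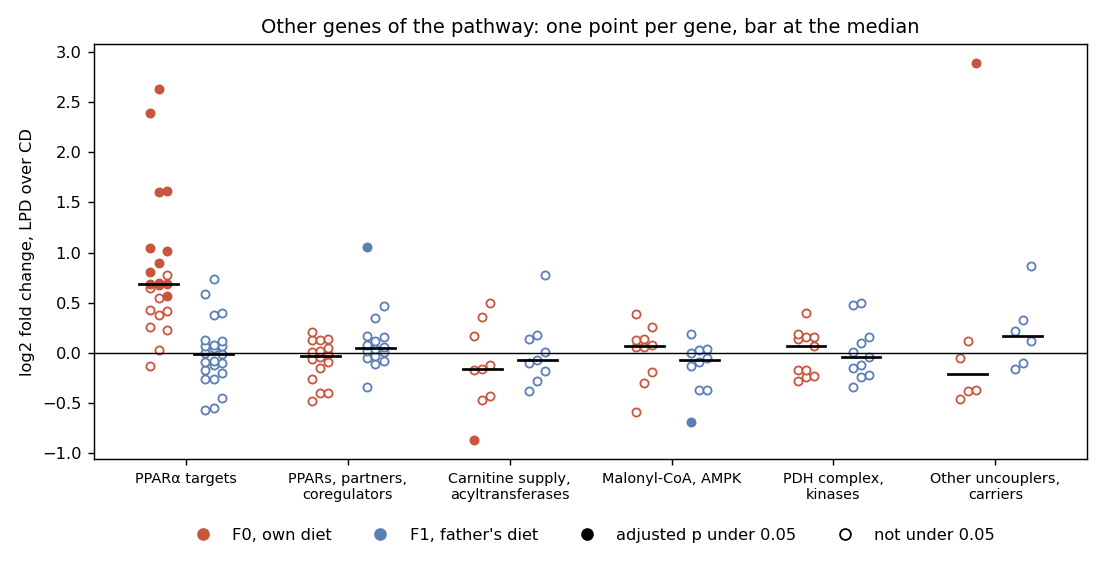
Log2 fold change, LPD over CD, of the other genes of the pathway on exon reads, 1 point per gene with a bar at the list's median, for F0 (red) and F1 (blue); filled points have an edgeR adjusted p under 0.05. In F0 the PPARα targets lie mostly above 0 (22 of 23, median 0.69) while the medians of the other 5 lists lie between -0.21 and 0.07, and in F1 all 6 medians lie between -0.07 and 0.17.

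Over all 10 libraries, the genes whose pattern came closest to a member were found by the root mean square difference of log2 CPM (0.5 added), each gene relative to its own mean, among 13870 genes. Closest to Cpt1b were Otop1 (0.21), Cidea (0.27), Phospho1 (0.28), Cox7a1 (0.29) and S100b (0.33), against a spread of Cpt1b itself of 0.94. Otop1, Cidea and Cox7a1 are on the list of brown or beige adipocyte markers. Closest to Ppara were Slc25a42 (0.36), Pcgf6 (0.37), Usp50 (0.38), Slc4a4 (0.39) and AC159633.2 (0.39), against its own spread of 0.63, so no gene tracked Ppara as closely as Otop1 tracked Cpt1b. With RPKM in place of CPM, 4 of the 5 genes for Ppara and all 5 for Cpt1b were again among the closest.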

How the data were processed

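RNA-seq libraries of iWAT were made from 50 ng of total RNA with rRNA depletion and a directional kit, and sequenced as 2 × 36 bases, per the labels. Mapping to mm10 was done by the authors with CLC Genomics Workbench. They deposited, for each gene and library, raw counts of reads on exons (total and unique), on introns and on junctions, and an expression value column of whole-number counts that is never below the unique nor above the total exon reads. How reads that match several genes were shared out is not given in the sources used here. In the deposited RPKM values, exon reads are divided by exon length and by a total per library, and the deposited TPM values were scaled by the authors within each library. RPKM served for levels, TPM only to check their order.

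The 8 members, the gene lists and the tests were chosen with earlier results of these data known. Total exon reads of all genes were fitted in R 4.3.3 with edgeR 4.0.16 (filterByExpr, TMM, quasi-likelihood F test, two-sided, Benjamini-Hochberg over all genes tested, threshold 0.05), separately for F0 (2 against 2) and F1 (3 against 3), with the interaction in a fit of all 10 libraries. CPM are those of the TMM-normalized libraries, within a generation for single genes and over all 10 libraries for marker sums. Unique exon reads and intron reads were fitted in the same way. The script was tested on simulated counts. Alternatives were DESeq2 1.42.0, its size factors, no filter, at least 10 reads in every library, unique reads, all reads on the gene, limma-trend (limma 3.58.1) on log2 RPKM with 0.1 added, the replicate number as a block, all 4 groups in one fit, each library left out, and, added after seeing the data, the expression value column (for levels, RPKM times the share of total exon reads it holds). Beside the members, the text names at most 4 genes per list and comparison past the threshold by size of change, the 5 genes most like Ppara and Cpt1b, overlapping genes and cell type markers; other listed genes given with values were picked after these were seen. Tmlhe and Itgam, on the lists, were not analysed here. Promoters come from RefSeq (GRCm38.p6), shared 36-base words from GENCODE vM21. Depth was 6351075 to 10044546 exon reads per library. One gene among the listed PPARα targets is counted with its list but not reported here by name.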

Additional observations from a re-analysis of the deposited data

Results flagged for a closer look

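The diet changes differed between generations for 12 genes of the lists and markers (edgeR's quasi-likelihood test of the interaction over all 10 libraries, adjusted p under 0.05), and for none of the 8 members. Of all 15111 genes tested, 0.357% were higher and 0.893% lower in F1. The 12 genes are given for this fit only, without their values under other settings or with a library left out. Values are the F1 change minus the F0 change on the log2 scale. Of the PPARα targets, Plin5 was at -2.56 (interval -3.37 to -1.74, edgeR adjusted p = 0.00884) and Vnn1 at -2.02: both rose under the LPD in F0 and did not pass in F1. Ppargc1a stood the other way at 1.44 (interval 0.78 to 2.10), with 19.6 and 23.0 CPM under the CD and 13.3 and 19.2 CPM under the LPD in F0 beside its rise in pLPD offspring. Slc25a4, the adenine nucleotide carrier of muscle and heart, differed by 0.58. Brown or beige adipocyte markers differed with Cox7a1 at -1.94, Cox8b at -1.51 and Otop1 at -2.17. White adipocyte markers gave Retn at 1.01 and Cfd at 1.13, and the macrophage marker Adgre1 was at -0.70. The muscle fibre genes Myh2 (4.01) and Myh7 (7.10) had the largest differences. For Myh7 this size depends on the number the fit adds to low counts, since it was at 17.5 and 22.4 CPM in F0 mice fed the CD, near the level of 3 reads in those fed the LPD and at 0 in 3 F1 libraries. Generation, age and library set cannot be told apart in any of these differences.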

How the results depend on the processing

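For single members, 455 values kept their direction and side of the threshold under the alternatives, 25 came to pass, 17 no longer passed and 23 turned direction. In F0, 2 members passed with limma-trend on RPKM and 2 with all 4 groups in one fit, 3 to 4 with 1 library left out, and 5 in the reported fit. In F1, 2 passed with no filter (Ppara and Pdk4). In the interaction, 2 passed with DESeq2, 4 with no filter, 1 with unique reads, 2 with the replicate block, 1 with the expression value column, and 0 to 3 with 1 library left out (3 without the first pLPD library). On introns 2 to 4 passed in F0 with 1 library left out; in F1 it was 2 with no filter, 2 with the replicate block and 0 to 1 with 1 library left out. The labels do not say whether equal replicate numbers pair mice, and weak correlations between libraries cannot settle it. Same-numbered deviations correlated at 0.056 in F0, and at 0.0736, 0.0090 and 0.0149 in F1. With the replicate number as a block, 6 members passed in F0, where 1391 of all genes were called. Directions turned with all reads on the gene for Ppargc1b in F0 (0.39) and in the interaction (-0.27), and for Cpt1a (-0.072) and Cpt1b (-0.00032) in F1. They turned in F1 with limma-trend for Cpt1a (-0.059) and Cpt1b (-0.21), and for Cpt1b with the block (-0.047, on unique reads -0.013) and the expression value column (-0.040). RPKM scaling moved the median of all genes by -0.15 in F1. With 1 library left out, Ppargc1b ran from -0.18 to 0.10 in F0 and from -0.015 to 0.34 in F1. In F1, Cpt1b ran from -0.43 to 0.24 (unique reads -0.49 to 0.33), Cpt2 from -0.089 to 0.018, Slc25a20 from -0.39 to 0.036 and Pdk4 from -0.27 to 1.09. Ppara in the interaction ran from -0.92 to 0.0026 and unique reads of Cpt1b in F0 from 1.04 to 2.45. Introns of Ucp3 ran from -0.011 to 0.27 in F0, and in F1 those of Ppargc1b from -0.079 to 0.089, Cpt1b from -0.54 to 0.60 and Cpt2 from -0.35 to 0.20. The cause of these moves was not tested. Over all genes, the calls moved as well: 82 to 1391 in F0 (364 reported), 117 to 798 in F1 (164 reported) and 74 to 890 in the interaction (189 reported) over the settings that keep all libraries. In F1 with 1 library left out they ran from 18 (without the first library of the CD fathers) to 510 (without the third). With the expression value column, chosen after seeing the data, 1 pair of neighbours in level overlapped under the LPD in F0, against 0. A group of 2 mice limits every F0 value, and without 1 of them the lone mouse is taken to vary like the others.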

Other observations

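The known PPARα targets outside the members had a median interaction of -0.77 on the log2 scale (F1 change minus F0 change), against -0.0028 over all genes tested, and 21 of 23 were below 0. By edgeR 2 of them passed and 17 were lower at an unadjusted p under 0.05. DESeq2 called 11 lower of 27, and without the first pLPD library edgeR called 10. Without the second F0 library on the CD, edgeR called none. Acadm (-0.61, edgeR adjusted p = 0.0510), Hadha (-0.96, edgeR adjusted p = 0.0534) and G0s2 (-1.16, edgeR adjusted p = 0.0684) were just short of the threshold. Ehhadh was at 0.0030, with an interval from -1.13 to 1.14. The F1 libraries entered this difference with levels that already differed from F0: Plin5 had 39.7 to 51.7 CPM in the sons of CD fathers and 4.79 and 8.70 CPM in F0 mice fed the CD, on scales normalized within each generation.

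Intron reads of Pdk4 and Ppara varied between mice in different ways. The intron share of Pdk4 reads spanned 6.28% to 24.2% over the 10 libraries, with 22.2% and 24.2% in replicates 2 and 3 of the pLPD offspring, whose exon levels lay within the range of the sons of CD fathers, and 9.19% in replicate 1, which had the highest exon level. For Ppara the share stayed between 50.5% and 65.6%.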
